A study of Homo sapiens with 4 samples.

Results

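The genes described here are the 4 tissue inhibitors of metalloproteinases, TIMP1 to TIMP4, and RECK, a membrane-anchored inhibitor of the same proteases. They were picked by gene name, 5 of the 20024 genes in the deposited table, and all 5 passed the filter on low counts. The family was taken up with the knockdown difference of TIMP3 already known, so the members' values are given as a description, with no test of their own. The cells were SJSA-1, a human osteosarcoma line with amplified MDM2 and CDK4. One group was labelled control and the other ZNF217 knockdown, with 2 libraries each; ZNF217 is a zinc finger transcription factor. The sources used here do not give the reagent of the knockdown, the agent given to the controls or whether replicates were separate cultures, so the spread between libraries may be technical.

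TIMPs are small secreted proteins that bind the catalytic zinc of matrix metalloproteinases (MMPs) and block them. TIMP3 differs from the others in that it stays bound to the extracellular matrix and also inhibits several ADAM and ADAMTS proteases, among them the sheddase ADAM17. TIMP2 bound to the membrane protease MMP14 helps to activate pro-MMP2, so that it acts both as an inhibitor and as an adaptor. RECK restrains several MMPs at the cell surface and, in blood vessels of the brain, works as a co-receptor for WNT7 ligands.

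The libraries held 21466327 to 24487126 counts. ZNF217 itself had 66.2 and 73.4 counts per 1000000 (CPM, scaled by the TMM method) in the controls, and knockdown replicates 1 and 2 had 37.6 and 31.9 CPM, on average 49.7% of control. Agreement was poorer within the controls, whose biological coefficient of variation was 0.393, than within the knockdown pair, where it was 0.0776, so each member is given against either control as well. Of the markers examined, MDM2, CDK4, RUNX2 and SPARC were present, with CDK4 at 184 to 367 CPM and MDM2 lower, at 30.4 to 46.3 CPM. These are transcript levels and do not show the amplification of either gene. The osteoblast genes ALPL and COL1A2 stayed below 0.2 CPM, and 5 blood markers summed to at most 0.709 CPM. Of 5 epithelial markers, the keratins KRT8 and KRT18 were at 769 to 1224 CPM, while CDH1, EPCAM and KRT19 each stayed below 1 CPM. In such bulk samples, fewer cells of a type and less RNA per cell cannot be told apart.

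TIMP3 had the largest difference of the family and TIMP1 was the most abundant member in every library. Knockdown libraries held less TIMP3 than both controls by a wide margin, somewhat less TIMP2 and RECK, and somewhat more TIMP4. For TIMP1 the knockdown libraries lay between the 2 controls.

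**Figure D1:**
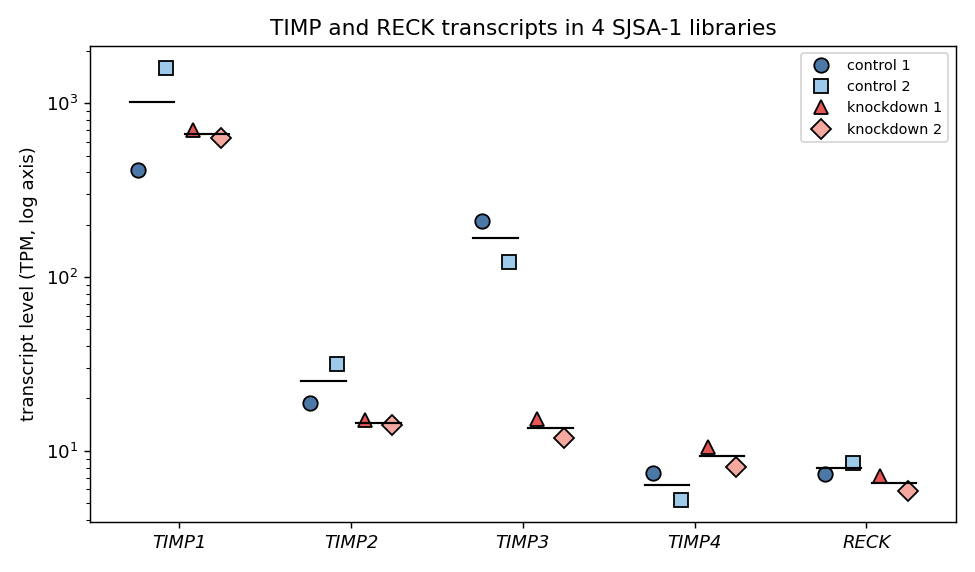
Levels of the 5 genes in transcripts per 1000000 (TPM, log axis) in the 2 control and 2 knockdown libraries; each point is 1 library and each bar the mean of a group. TIMP3 lay at 211 and 122 TPM in the controls and at 15.1 and 11.8 TPM in the knockdown libraries, while TIMP1 in the knockdown libraries lay between the controls.

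TIMP3 (ENSG00000100234, chromosome 22, 32801701 to 32863043, plus strand, GRCh38) had 6246 and 4541 counts in the controls and 539 and 409 counts in the knockdown libraries. That is 289 and 203 CPM against 21 and 17.1 CPM. Both knockdown libraries lay far below both controls, and the groups did not overlap. The means were 246 ± 60.9 and 19 ± 2.82 CPM (SD, n = 2 each), and the knockdown mean was 7.75% of the control mean. In the edgeR fit the log2 fold change, knockdown over control, came to −3.69 (SE 0.28). It was −3.92 against control replicate 1 alone and −3.42 against control replicate 2 alone, so neither control decided its direction or its size. Ordered by log2 fold change, TIMP3 stood sixth from the bottom among the 9914 tested genes that reached 10 CPM in any library. In the order of all genes by TPM it moved from places 723 and 1101 in the controls to places 6523 and 7092 in the knockdown libraries.

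TIMP1 (ENSG00000102265, chromosome X, 47582313 to 47586789, plus strand) codes for a secreted inhibitor that binds pro-MMP9 and signals through the tetraspanin CD63. It had 3855 and 18705 counts in the controls and 7882 and 6917 counts in the knockdown libraries. In CPM the controls were at 178 and 835, and the knockdown libraries at 308 and 288. The controls lay on either side of the knockdown pair and differed from each other 4.68-fold, while the knockdown values lay close together. The means were 506 ± 464 and 298 ± 13.6 CPM (SD, n = 2 each), with a log2 fold change of −0.76 and a standard error of 0.69. Leaving out control replicate 2 gave a log2 fold change of 0.74, and leaving out control replicate 1 gave −1.5. The direction for TIMP1 was thus set by which control was used.

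TIMP2 (ENSG00000035862, chromosome 17, 78852977 to 78925387, minus strand) had 683 and 1434 counts in the controls and 650 and 599 counts in the knockdown libraries. In CPM these were 31.6 and 64 against 25.4 and 25. Both knockdown libraries lay below both controls, but control replicate 1 stood closer to them than to control replicate 2. The means were 47.8 ± 22.9 and 25.2 ± 0.279 CPM (SD, n = 2 each), with a log2 fold change of −0.92 (SE 0.37). Leaving out control replicate 2 brought it to −0.33, and leaving out control replicate 1 to −1.36.

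RECK (ENSG00000122707, chromosome 9, 36036433 to 36124451, plus strand) had 263 and 382 counts in the controls and 307 and 248 counts in the knockdown libraries. The CPM values were 12.2 and 17 against 12 and 10.3. The groups did not overlap, yet the gap between control replicate 1 and knockdown replicate 1 was within counting error, with 95% Poisson intervals of 10.7 to 13.7 and 10.7 to 13.4 CPM. Its log2 fold change came to −0.39 (SE 0.29), and −0.12 without control replicate 2.

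TIMP4 (ENSG00000157150, chromosome 3, 12153051 to 12159351, minus strand), best known from heart muscle, was the member with the fewest counts, 57 and 50 in the controls and 97 and 73 in the knockdown libraries. The CPM values were 2.64 and 2.23 against 3.79 and 3.04. Here alone among the members both knockdown libraries lay above both controls. Its log2 fold change came to 0.49 (SE 0.39). The 95% Poisson intervals of control replicate 1 and knockdown replicate 2, 2 to 3.41 and 2.39 to 3.83 CPM, overlapped, so that difference was not resolved at this depth. These intervals cover counting error only.

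**Figure D2:**
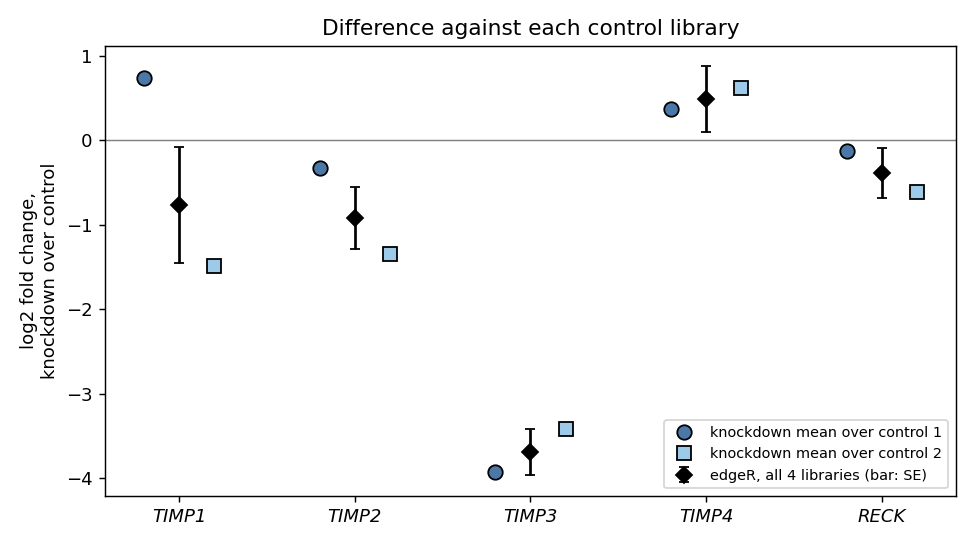
Log2 fold change of each member, with the mean of the 2 knockdown libraries set against control replicate 1 (circles), against control replicate 2 (squares) and, in the edgeR fit, against both controls (diamonds, bars show the standard error). TIMP3 stayed between −3.92 and −3.41, whereas TIMP1 ran from 0.74 to −1.49 across the 0 line.

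Across all 12965 tested genes, edgeR's quasi-likelihood test with Benjamini-Hochberg adjustment called no gene at 0.05 in either direction (0% higher and 0% lower) and so called 0 of the 5 members. At an unadjusted p under 0.05 it marked 1690 genes, 13% of those tested. DESeq2 called 473 of 12462 genes, 3.8%, and among the members 1, TIMP3, as lower, a direction in which it called 2.12% of genes (and 1.68% higher). Groups did not overlap for 4 of the 5 members, 3 lower and 1 higher in knockdown, beside 48.3% of all tested genes (22.9% lower and 25.4% higher). Since the family was chosen with this contrast in view, nothing is read from these counts. With 2 libraries against 2, an exact two-sided permutation test of a single gene cannot give a p below 0.333.

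The makeup of the family's transcripts was compared on the TPM scale, which accounts for gene length. In control replicate 1 the order was TIMP1, TIMP3, TIMP2, TIMP4 and RECK, and in control replicate 2 the last pair changed places. The deposited length was 1194 bases for TIMP4, whose GENCODE exons cover 1650, and 5569 for RECK, whose exons cover 6045. In control replicate 1 these genes were near each other, at 7.44 and 7.36 TPM. Their order there thus depends on the length used. TIMP3 stood clear of TIMP2 in both controls, at 167 ± 62.9 against 25.3 ± 8.99 TPM (SD, n = 2). In knockdown the levels of TIMP2 and TIMP3, 14.5 ± 0.60 and 13.5 ± 2.39 TPM, did not differ beyond their spread and their order changed between the libraries. TIMP4 and RECK overlapped within the control spread, at 6.32 ± 1.58 and 7.94 ± 0.819 TPM. In knockdown TIMP4 was above RECK in both libraries, at 9.30 ± 1.71 and 6.51 ± 0.873 TPM.

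The 4 TIMP genes together came to 653 and 1766 TPM in the controls and to 746 and 667 TPM in the knockdown libraries. TIMP1 made up 63.6% and 91% of that sum in the controls and 94.6% and 94.9% in knockdown. TIMP3 made up 32.4% and 6.94% in the controls, against 2.03% and 1.76% in knockdown. The controls thus differed more in this share than in the TIMP3 level itself, as they differed in TIMP1. Among the other TIMP genes, leaving TIMP1 aside, TIMP3 made up 88.9% and 76.9% of the transcripts in the controls and 37.3% and 34.7% in knockdown. The ratio of TIMP1 to TIMP3 was 1.96 and 13.1 in the controls and 46.6 and 53.8 in knockdown, higher in both knockdown libraries than in either control.

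**Figure D3:**
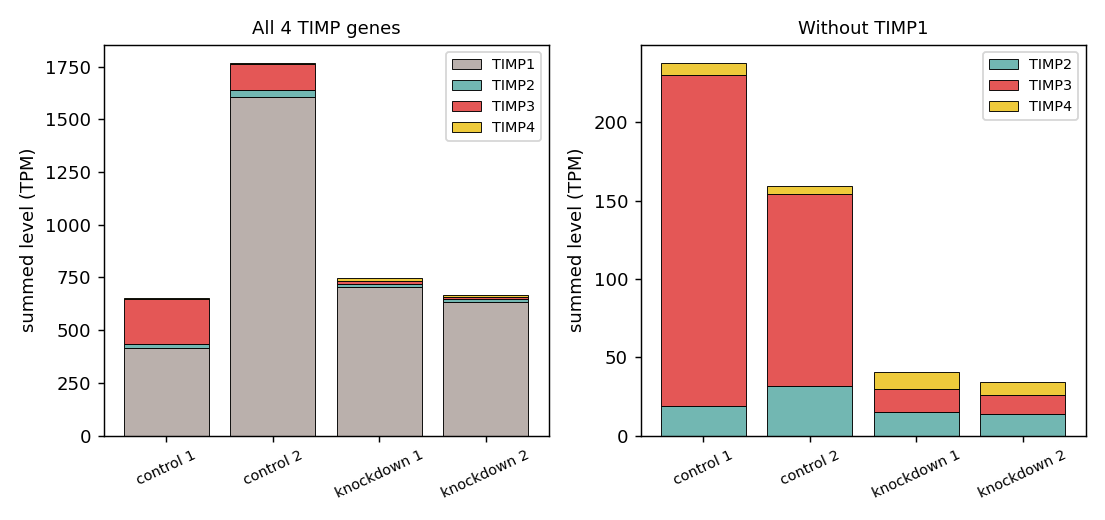
Summed TPM of the TIMP genes in each library, with all 4 genes (left) and without TIMP1 (right); each bar is 1 library and each colour 1 gene. TIMP1 sets the height on the left, and on the right the sum goes from 238 and 159 TPM in the controls to 40.6 and 33.9 TPM in knockdown, mostly through TIMP3.

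Sequence before the RefSeq start (GRCh38.p14) is shown for TIMP1 and TIMP3, the most abundant members in the controls, whose levels went opposite ways between the 2 controls. For TIMP3 it is the 250 bases before the start, and for TIMP1 the 30 bases around the AP-1 variant. Capitals mark matches on either strand to the AP-1 variant TGAGTAA and to the GC box GGGCGG; the AP-1 motif TGANTCA was searched as well.
TIMP1 (chrX:47582324-47582353, plus strand): tggtgggtggaTGAGTAAtgcatccaggaa
TIMP3 (chr22:32801455-32801704, plus strand): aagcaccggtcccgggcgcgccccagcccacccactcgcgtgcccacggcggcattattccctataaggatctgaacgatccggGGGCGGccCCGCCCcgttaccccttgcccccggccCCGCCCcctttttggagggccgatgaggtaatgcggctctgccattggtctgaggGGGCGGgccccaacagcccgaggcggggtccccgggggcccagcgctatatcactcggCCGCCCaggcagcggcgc
The TIMP1 site lies downstream of the first base that GENCODE gives for the gene, 47582313, and so inside that annotation's gene. Of the windows searched below, those of RECK (36036663 to 36036912) and TIMP4 (12158913 to 12159162) lie wholly inside the GENCODE genes. The TIMP3 window lies almost wholly before its GENCODE start, 32801701.

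Over the 250 bases before each start, TIMP1 held 1 AP-1 variant, 101 to 95 bases before its start, which 2.21% of 35116 human promoter windows of the same length hold at least once, and 2 GC boxes. TIMP3 held 5 GC boxes and no match to either AP-1 form. RECK held 3 GC boxes and TIMP4 held 1, and neither had a match to either AP-1 form. A GC box was found in 42.6% of all windows and 3 or more in 13.9%, while TGANTCA, found in 6.57%, was in none of the 4 members searched. The GC content was 72.4% for TIMP3 and 62.8% to 64.8% for the other 3, beside a median of 58% over all windows. GC boxes are bound by SP1, whose transcript had 60.5 and 43 against 53.8 and 52.3 CPM, with overlapping groups. A match describes letters only and says nothing of binding. Matches in these windows did not overlap each other. The table of promoters matched 4 of the 5 members, all but TIMP2.

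**Figure D4:**
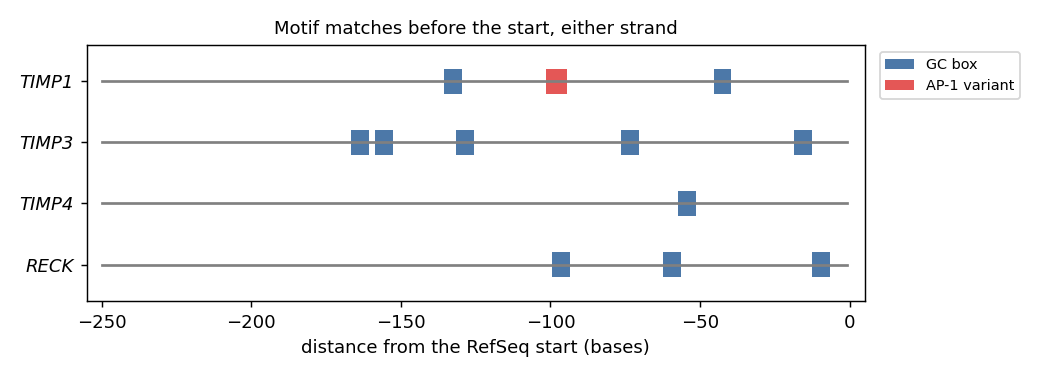
Position of each GC box (blue) and AP-1 variant (red) match, on either strand, in the 250 bases before the RefSeq start of 4 members; the axis gives the distance from the start in bases. TIMP3 has 5 GC boxes and TIMP1 has the only AP-1 variant. The windows of RECK and TIMP4 lie inside the genes as GENCODE gives them.

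TIMP1, TIMP3 and TIMP4 each lie inside a synapsin gene on the opposite strand (SYN1, SYN3 and SYN2, in this order), and no source used here states whether the counting used strand. SYN1 had 4 to 12 counts and SYN3 15 to 53 counts per library, and GENCODE gives neither any exon base in common with the TIMP gene inside it. SYN2 shares 170 exon bases with TIMP4, 10.3% of the exon bases of TIMP4, and had 151 to 217 counts, more than TIMP4 in every library. The length deposited with the counts was 1194 bases for TIMP4, while its GENCODE exons cover 1650. The counting may thus have used another gene model, to which this overlap may not apply. Reads of TIMP4 and SYN2 over those bases cannot be told apart without strand, so the low TIMP4 values are uncertain. TIMP2 shares 198 exon bases with CEP295NL, which had at most 1 count in any library, and 367 with the antisense transcript AC022966.1, not analysed here.

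The genes with the nearest profiles were found for TIMP1, TIMP2, TIMP3 and RECK over the 4 libraries, as the Euclidean distance between log2 CPM values centred on each gene's own mean, among 9330 other genes of at least 10 CPM on average. TIMP4, under that level, was not compared. For TIMP3 the nearest were MMP9, PODXL, NID1 and DACT1, at distances of 1.02 to 1.26, so no gene matched it closely. MMP9, a gelatinase that TIMPs inhibit, had 26 and 22.5 CPM in the controls and 3.67 and 3.75 CPM in knockdown. For TIMP1 they were DHRS3, IER3, PAQR5, MSX2 and ITGA11, at 0.079 to 0.166. IER3, an immediate early gene, had 188 and 815 CPM in the controls and 306 and 282 CPM in knockdown, close to the values of TIMP1 library by library. HERPUD1, CELSR1, TBX3, RHBDF1 and CTSZ were nearest to TIMP2, at 0.031 to 0.054. For RECK they were NIPSNAP2, PI4K2B, KLHDC2, MAP2K1 and RABGAP1, at 0.020 to 0.082.

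The proteases that the members inhibit were examined as lists. These lists and those further below were chosen with earlier results of these data known, so nothing is read from their medians or counts. Of 23 matrix metalloproteinases 15 were tested. Their log2 fold changes had a median of −0.50, beside −0.01 for all tested genes. By edgeR 0 passed and 5 had an unadjusted p under 0.05, as had 13% of all tested genes. DESeq2 called 0 higher and 2 lower, MMP9 and MMP14, beside 3.8% of all genes called in either direction. MMP14, the membrane protease that TIMP2 and TIMP3 inhibit and RECK restrains, had 310 and 372 CPM in the controls and 156 and 131 CPM in knockdown. Its log2 fold change came to −1.25 (SE 0.20). MMP9 had a log2 fold change of −2.71 (SE 0.26). The most abundant protease was the collagenase MMP1, at 5923 and 17333 TPM in the controls and at 7584 and 7034 TPM in knockdown; like TIMP1 it was highest in control replicate 2 and lay between the controls in knockdown. The gelatinase MMP2, activated through TIMP2 and MMP14, was at 23.9 and 60.9 CPM against 16.8 and 17.9 CPM, lower in both knockdown libraries but not called. The stromelysin MMP3 was lowest in control replicate 2, with 54.7 and 4.42 against 23.6 and 28.2 CPM.

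On the TPM scale the sum of the TIMP genes over the sum of the MMP genes was 0.103 and 0.0999 in the controls and 0.0958 and 0.0924 in knockdown, a narrow range; MMP1 made up 93.5% to 98.1% of the MMP sum and TIMP1 at least 63.6% of the TIMP sum. Without TIMP1 the same ratio was 0.0375 and 0.00901 in the controls and 0.00521 and 0.00470 in knockdown. TIMP3 over MMP14 was 0.903 and 0.527 in the controls and 0.130 and 0.126 in knockdown, so TIMP3 differed more than MMP14 did. TIMP2 over MMP14 was 0.0807 and 0.136 in the controls against 0.128 and 0.151 in knockdown, with overlapping groups. These ratios concern transcripts and not protein or activity.

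Of 9 ADAM proteases 8 were tested, with a median of −0.42. EdgeR called 0, while 4 had an unadjusted p under 0.05, as had 13% of all tested genes. DESeq2 called ADAM10 and ADAM19 lower and ADAM28 higher, beside 3.8% of all genes called in either direction. ADAM10, a sheddase, had 71.2 and 64.2 CPM in the controls and 38.1 and 33.9 CPM in knockdown. The meltrin ADAM19 had 167 and 191 against 78.8 and 70.8 CPM, and ADAM28 was scarce, with 0.139 and 0.402 against 2.85 and 2 CPM. Of the other abundant ones, ADAM9 had 99.5 and 40.9 against 94 and 71.6 CPM with overlapping groups, and ADAM15 had 18 and 20.3 against 31.7 and 30.4 CPM, above both controls but not called. ADAM17, the sheddase that TIMP3 inhibits, was at 24.6 and 34.4 CPM against 32.4 and 29.7 CPM, with overlapping groups and a log2 fold change of 0.07 with a standard error of 0.25. Of 19 ADAMTS proteases 12 were tested, with a median of −0.18; edgeR called 0, with 4 at an unadjusted p under 0.05, and DESeq2 called ADAMTS6 lower, at 27.4 and 17.3 against 8.35 and 8.51 CPM. ADAMTS12 had 31.3 and 48.6 against 37.9 and 34.1 CPM with overlapping groups, and ADAMTS1 had 7.03 and 7.23 against 12.4 and 12.2 CPM and was not called. Groups did not overlap for 6 of 15 metalloproteinases, 6 of 8 ADAM and 7 of 12 ADAMTS genes, beside the 48.3% of all tested genes.

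**Figure D5:**
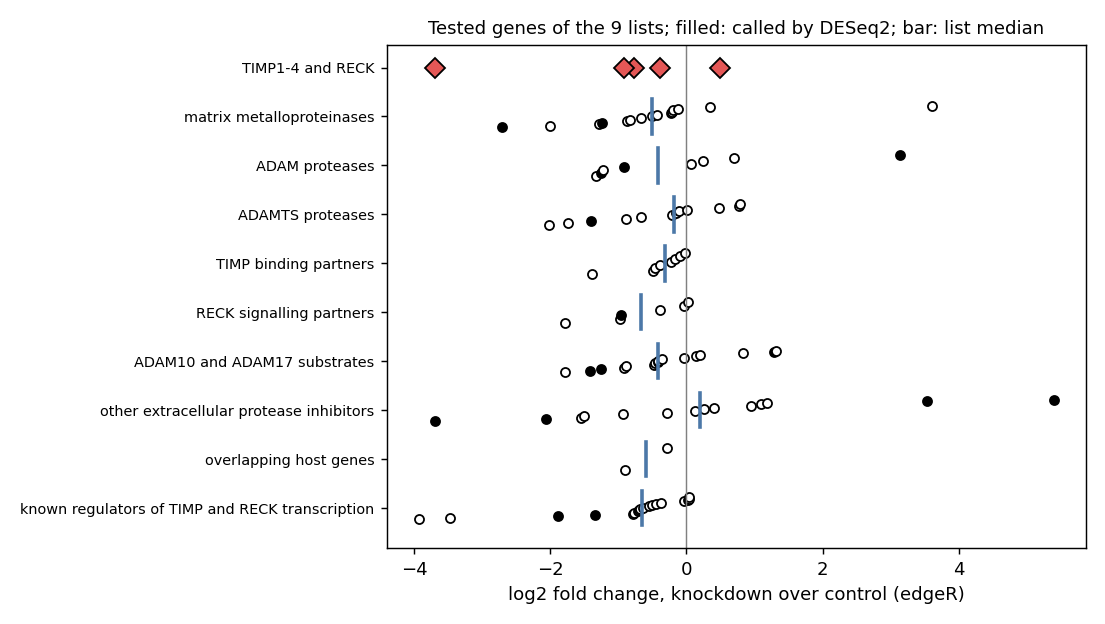
Log2 fold change, knockdown over control, of the 5 members (diamonds) and of the tested genes of 9 lists (circles, filled where DESeq2 called the gene at an adjusted p under 0.05); blue bars show list medians. TIMP3 lies at −3.69, below each of the tested metalloproteinase, ADAM and ADAMTS genes, but not below every gene of the other lists.

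Among genes whose products the members bind, DESeq2 and edgeR called 0 of the 8 tested TIMP binding partners. An unadjusted edgeR p under 0.05 was found for 1 of them. Over all tested genes 13% had such a p, and DESeq2 called 3.8% in either direction. The TIMP1 receptor CD63 was at 377 and 475 CPM against 371 and 388 CPM, with overlapping groups. The integrin ITGB1 had 328 and 201 against 219 and 184 CPM, also overlapping, and CD44 had 777 and 888 against 621 and 584 CPM and was not called. Of the 6 signalling partners of RECK, edgeR called 0, with 3 at an unadjusted p under 0.05, and DESeq2 called 1, the ligand WNT7B, at 53.8 and 71.9 CPM in the controls and at 30.8 and 34 CPM in knockdown. The WNT co-receptors LRP5 and LRP6 had 31.1 and 91 against 48.4 and 44.5 CPM and 38 and 29 against 34.6 and 30.7 CPM, both with overlapping groups. Of 16 tested substrates of ADAM10 and ADAM17, edgeR called 0, with 7 at an unadjusted p under 0.05, beside the 13% of all tested genes. DESeq2 called IL6R higher and HBEGF and AXL lower; IL6R had 10.4 and 10 against 24.7 and 25.1 CPM and HBEGF 50.3 and 38.8 against 17.6 and 19.6 CPM, and the receptor AXL was at 324 and 234 CPM against 105 and 104 CPM.

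Other inhibitors of extracellular proteases numbered 14 tested genes, whose log2 fold changes had a median of 0.20. By edgeR 0 passed and 6 had an unadjusted p under 0.05, as had 13% of all tested genes. Among those that DESeq2 called, SERPINA1 was lower and PI3 and SLPI were higher. SERPINA1 was scarce, with 0.879 and 5.98 against 0.312 and 0.208 CPM. The elastase inhibitors PI3 and SLPI were near the detection limit in the controls, at 0 and 0.178 CPM and at 0 and 0.937 CPM, and reached 4.29 and 3.75 CPM and 6.36 and 4.67 CPM in knockdown.

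Of 18 genes reported to regulate TIMP or RECK transcription, all were tested, with a median of −0.66. By edgeR 0 passed and 9 had an unadjusted p under 0.05, as had 13% of all tested genes. DESeq2 called JUN and MYC lower, a direction in which it called 2.12% of all genes. As this list too was chosen with earlier results known, nothing is read from these counts. MYC was at 49.3 and 41.8 against 15.5 and 20.3 CPM, lower in both knockdown libraries. JUN, an AP-1 subunit, had 244 and 583 against 109 and 114 CPM, highest in control replicate 2 as TIMP1 was. In control replicate 1 the 2 genes differed, as JUN lay above both knockdown libraries and TIMP1 below them. Whether JUN levels bear on any member was not tested.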

How the data were processed

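RNA of 2 control and 2 ZNF217 knockdown libraries was analysed from counts per gene, deposited by the authors as whole numbers without normalization. The tools named, without versions, are Trimmomatic, HISAT2, Subread and DESeq2 with the GRCh38 build, per the submitters' processing notes. The authors deposited a signal named TPM, which sums to 10 times the TPM total; it was divided by 10. Their deposited log2 fold changes, Wald scores and p-values, raw and adjusted, are DESeq2 output, per the file headers, and entered no test here.

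Counts were fitted with edgeR 4.0.16 in R 4.3.3 (TMM, quasi-likelihood, two-sided, Benjamini-Hochberg over 12965 genes left by a minimum count of 10 and total of 15, threshold 0.05). DESeq2 1.42.0 was the alternative tool, on the same genes. Both were run on simulated data with the same spread in all libraries. The control and knockdown pairs here differed in spread, so that run does not show how either tool behaves on them. Scaling, filters, the replicate number as a block and each library left out were other alternatives. The members, and 9 lists of 128 genes, were chosen with earlier results of these data known. Named list genes are those DESeq2 called and the 3 most abundant of a protease or partner list by TPM, with nearest profiles by the stated distance, some of which are not reported here; MMP2, ADAM17 and SP1 were added after their values were seen. Promoters came from RefSeq and positions from GENCODE release 29.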

Additional observations from a re-analysis of the deposited data

How the results depend on the processing

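TIMP3 kept its direction under each alternative run, with a log2 fold change of −3.92 to −3.42 when 1 library was left out and −3.71 to −3.59 otherwise. It was called without a low-count filter, by DESeq2, with the replicate number as a block and in each fit with 1 library left out, but not by edgeR with all libraries, with other scaling or with a stricter filter. TIMP1 turned to 0.74 without control replicate 2 (range −1.5 to 0.74 with 1 library left out), and TIMP2 came to −0.33 there; the cause was not tested. Over all genes, 0 higher and 0 lower calls became 16 and 3 without a low-count filter, 209 and 264 by DESeq2 and 160 and 124 with the block. With 1 library left out they ranged from 12 to 3710 and from 3 to 3729, with 3710 and 3729 without control replicate 1 and 2374 and 2183 without control replicate 2, where a lone control or knockdown library is assumed to vary like the other group. Among the list genes, 0 calls became 16 by DESeq2, and 0 to 72 with 1 library left out (72 without control replicate 1 and 51 without control replicate 2). Without control replicate 1, 4 members were called, and without control replicate 2 it was TIMP1 and TIMP3. Samples with the same number did not deviate together (correlation −0.0196 across genes), and the labels give no pairing, so the numbers were not taken to pair the samples.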

Other observations

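In the authors' deposited table, control over knockdown, the log2 fold change of TIMP3 was 2.08 with a standard error of 0.368, nearer to 0 than the −3.69, knockdown over control, fitted to the 4 deposited count columns. For TIMP4 the authors' deposited table gave 0.436 with a standard error of 1.09, higher in control, while both control libraries lay below both knockdown libraries in the counts. The mean normalized count of TIMP4 in the authors' deposited table was 18.4, below the lowest of the 4 libraries, which had 50 counts. For TIMP1 the authors' deposited table gave a mean normalized count of 6465, against a mean of 9340 raw counts over the 4 libraries. For TIMP2 it was higher, 1356 against 841.5 raw counts. For TIMP3 and RECK the 2 means were closer, 2779 against 2934 and 297 against 300. Normalized counts are scaled between libraries and raw counts are not. No source used here says which libraries entered the authors' deposited table.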
